A study of Rattus norvegicus with 9 samples.

Results

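The CXC chemokine ligands are small secreted proteins that bind CXC receptors on leukocytes and guide their movement. The 8 ligands described here, Cxcl1, Cxcl2, Cxcl9, Cxcl10, Cxcl11, Cxcl12, Cxcl13 and Cxcl16, were each measured by 1 probeset that carries that single gene symbol in the array's annotation, among 18166 genes with 1 symbol on the array. The arrays hold RNA from hepatic macrophages of Sprague-Dawley rats, 1 rat per array and 3 rats per group. In the sham group the operation was done but no ligature was placed. In the other groups macrophages were taken 3 days or 10 days after PPVL, a partial ligation in which the portal vein is narrowed by a ligature tied around it and a needle that is then withdrawn, a model of portal hypertension. The rats of the study were male, and the labels name no transgene or drug. No day of collection is labelled for sham, so time since surgery and ligation cannot be told apart there.

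Cxcl1 and Cxcl2 belong to the ligands that attract neutrophils through the receptor Cxcr2, and macrophages make them within hours of contact with bacterial products or injury, largely through the transcription factor NF-kB. Cxcl9, Cxcl10 and Cxcl11 are induced by interferons and attract activated T cells and natural killer cells through Cxcr3, as known best from human and mouse. Cxcl12 is a product of stromal cells that retains leukocytes through Cxcr4, Cxcl13 attracts B cells through Cxcr5, and Cxcl16, which is made both as a membrane protein and in a shed form, is the ligand of Cxcr6. In the liver, macrophages stand among the sources of these signals after injury.

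The promoters of the 5 ligands on which the results turn are shown first, because Cxcl9, Cxcl10 and Cxcl11 had the same order of rats in the 3-day group and Cxcl1 and Cxcl2 shared the direction of their differences at 3 days. All 8 ligands have an entry among the RefSeq promoters of the GRCr8 build, each 250 bases before to 50 bases after the start of the gene. Capitals mark matches to any of 4 motifs, searched on both strands: the core of the interferon-stimulated response element (ISRE, GAAANNGAAA), an NF-kB motif (GGGNNNTTCC), the gamma-activated site (GAS, TTCNNNGAA) and AP-1 (TGAGTCA). The sequences run 5′ to 3′ along the gene. That of Cxcl1 is at chr14:17479272-17479571 and that of Cxcl2 at chr14:17467206-17467505, both on the minus strand. Those of Cxcl9 (chr14:16006916-16007215), Cxcl10 (chr14:15988816-15989115) and Cxcl11 (chr14:15973478-15973777) are on the plus strand.
Cxcl1: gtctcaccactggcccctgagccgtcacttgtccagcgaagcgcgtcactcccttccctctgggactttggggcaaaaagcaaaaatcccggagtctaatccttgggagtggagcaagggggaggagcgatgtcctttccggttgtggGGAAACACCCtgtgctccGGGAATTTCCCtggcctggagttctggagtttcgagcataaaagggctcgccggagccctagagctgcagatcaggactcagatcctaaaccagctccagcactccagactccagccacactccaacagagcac
Cxcl2: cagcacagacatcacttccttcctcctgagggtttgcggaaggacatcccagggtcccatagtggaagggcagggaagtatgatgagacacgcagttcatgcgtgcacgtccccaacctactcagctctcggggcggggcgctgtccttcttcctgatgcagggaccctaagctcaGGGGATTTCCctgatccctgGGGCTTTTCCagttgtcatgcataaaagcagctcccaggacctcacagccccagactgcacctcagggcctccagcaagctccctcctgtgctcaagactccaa
Cxcl9: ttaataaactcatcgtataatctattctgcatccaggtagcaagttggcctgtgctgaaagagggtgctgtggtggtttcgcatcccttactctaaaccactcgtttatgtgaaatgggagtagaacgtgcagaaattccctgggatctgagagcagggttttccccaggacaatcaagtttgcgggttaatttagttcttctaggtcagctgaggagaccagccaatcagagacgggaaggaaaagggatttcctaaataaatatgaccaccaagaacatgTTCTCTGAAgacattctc
Cxcl10: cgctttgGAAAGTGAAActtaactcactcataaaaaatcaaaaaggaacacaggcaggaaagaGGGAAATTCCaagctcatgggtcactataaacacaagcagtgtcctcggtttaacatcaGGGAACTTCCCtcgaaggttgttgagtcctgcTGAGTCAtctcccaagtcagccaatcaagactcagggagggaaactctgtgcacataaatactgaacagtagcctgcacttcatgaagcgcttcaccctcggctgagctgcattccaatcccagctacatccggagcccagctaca
Cxcl11: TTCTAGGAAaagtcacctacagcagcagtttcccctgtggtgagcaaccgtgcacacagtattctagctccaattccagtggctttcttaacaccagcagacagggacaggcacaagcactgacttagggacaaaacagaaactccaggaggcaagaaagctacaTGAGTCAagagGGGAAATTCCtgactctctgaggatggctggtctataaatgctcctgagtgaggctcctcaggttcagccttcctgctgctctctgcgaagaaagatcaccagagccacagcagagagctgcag

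The NF-kB motif was present in 4 of the 8 promoters, those of Cxcl1, Cxcl2, Cxcl10 and Cxcl11, and in 5.37% of the 33469 promoters of the same length. In Cxcl1 the match GGGAATTTCC lay 84 to 75 bases before the start and overlapped by all but 1 base with a match on the other strand, and a further match, GGAAACACCC, lay 102 to 93 bases before the start. In Cxcl2 the matches GGGGATTTCC and GGGCTTTTCC lay 74 to 65 and 54 to 45 bases before the start. In Cxcl10 one match (GGGAAATTCC) lay 187 to 178 bases before the start and another (GGGAACTTCC) lay 128 to 119 bases before it, again overlapping with a match on the other strand. Cxcl11 had GGGAAATTCC 74 to 65 bases before the start. The ISRE core was present in 1 of the 8, as GAAAGTGAAA in Cxcl10, 243 to 234 bases before the start, against 3.92% of all promoters. AP-1 was present in Cxcl10 and Cxcl11, and in 4.63% of all promoters. The GAS motif was present in Cxcl9, as TTCTCTGAA after the start, and in Cxcl11, as TTCTAGGAA, and in 8.87% of all promoters. The motifs were chosen with the promoters in view, so these shares are no test of enrichment among the ligands. The matches describe the letters in the window and do not show that a factor is bound there. On the GRCr8 assembly Cxcl11, Cxcl10 and Cxcl9 follow each other on chromosome 14 with no other protein-coding gene between them, and Cxcl2 and Cxcl1 are neighbours on the same chromosome.

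Signals are on the log2 scale, so that a difference of 1 is a doubling. Values of different probesets cannot be set against each other, so each ligand is compared only with itself across groups. Signals of the 9 arrays had medians of 5.21 to 5.26, and arrays correlated with each other by 0.987 to 0.993 over all probesets. Genes were tested where their mean signal reached 4.16, the 30th percentile over all probesets, and 14014 did so. All 11 macrophage markers found on the array passed this filter. Among them, markers of Kupffer cells, the resident macrophages of the liver, had mean signals of 5.03 for Clec4f, 4.50 for Cd163, 4.40 for Timd4 and 4.26 for Vsig4, from which no order of abundance between genes is read. All 11 T cell and all 10 natural killer cell markers found on the array passed as well. In such bulk samples fewer cells of a type and less RNA per cell cannot be told apart.

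Of the 8 ligands 6 passed the filter. Cxcl12 (mean 4.14, just under the filter) and Cxcl13 (2.93) did not, and their test without a filter is given further on. None of the 6 passed the moderated test of limma in any comparison after Benjamini-Hochberg adjustment over the 14014 genes, with a threshold of 0.05. At 3 days against sham 2.86% of the tested genes passed, at 10 days 0.735%, between the days 0.0714% and in the F test of any difference among the 3 groups 2.35%. At an unadjusted p under 0.05 there were 2 of the 6 ligands at 3 days, Cxcl1 and Cxcl2, where 15.5% of all tested genes were. At 10 days there were 0 of 6, against 16.2% of all genes, and between the days 2 of 6, again Cxcl1 and Cxcl2, against 11.3%. The groups did not overlap for 1 of the 6 ligands at 3 days (18.8% of all genes), for 0 of 6 at 10 days (21%) and for 1 of 6 between the days (14.6%). With 6 ligands, 1 gene moves such a share widely, and nothing is read from these counts about the ligands as a group. The median difference of the 6 was -0.10 at 3 days, 0.01 at 10 days and 0.24 between the days, where the medians over all tested genes were -0.01, -0.00 and 0.01. The comparisons with sham share the sham arrays. An exact permutation test of a single ligand between groups of this size has 0.1 as its smallest p.

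**Figure D1:**
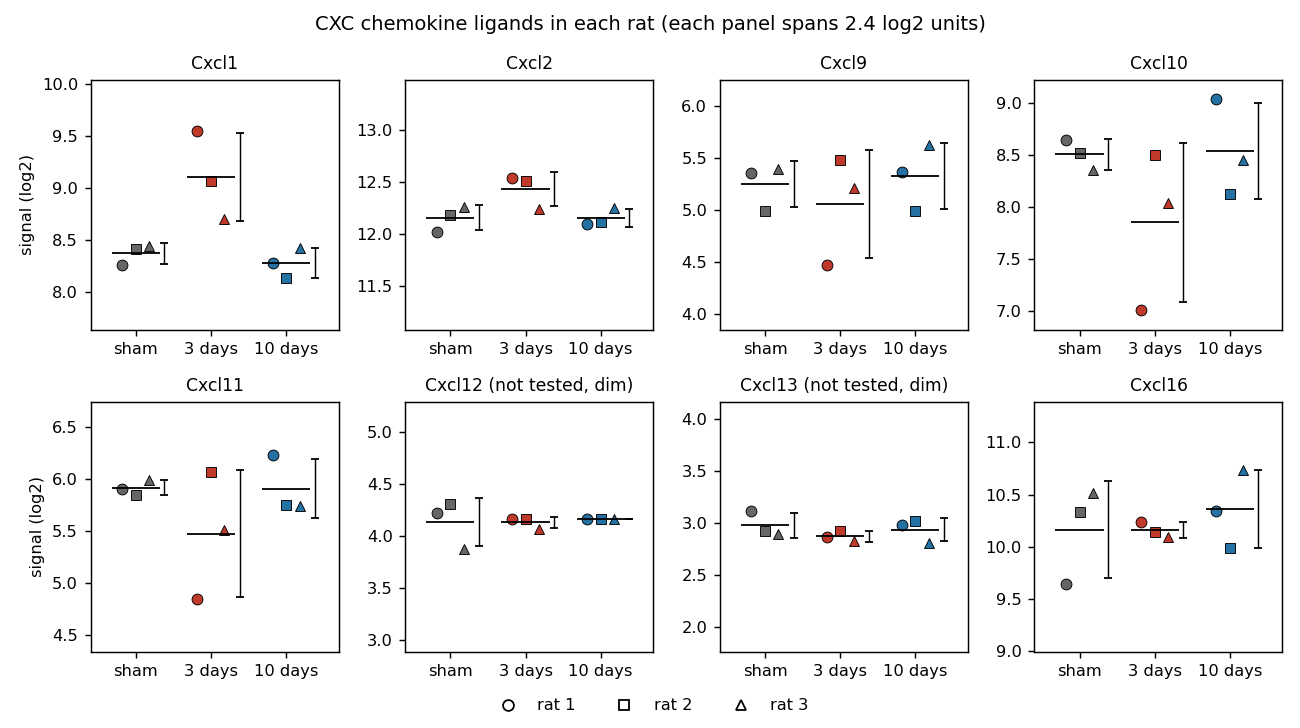
Signal (log2) of each of the 8 ligands in the 9 rats; symbols mark the rat number within a group, the line the mean and the bar beside it the SD of 3 rats. Every panel spans the same height. The 3-day rats lie above all others for Cxcl1, and 3-day rat 1 lies lowest for Cxcl9, Cxcl10 and Cxcl11.

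Cxcl1 came closest to the threshold. Its signal was 8.26, 8.41 and 8.44 in the sham rats, 9.54, 9.06 and 8.70 in the 3-day rats and 8.27, 8.13 and 8.42 in the 10-day rats. All 3-day rats lay above every sham rat and every 10-day rat, while the sham and 10-day rats overlapped. The group means were 8.37 ± 0.10 (SD, n = 3), 9.10 ± 0.42 and 8.27 ± 0.14. At 3 days Cxcl1 differed from sham by 0.73 ± 0.18 (SE), 1.66-fold, with a 95% interval of 0.33 to 1.13 and an adjusted p of 0.0636 in limma. This difference was larger than those of 98.8% of the tested genes. At 10 days it differed from sham by -0.09 (interval -0.49 to 0.30, adjusted p = 0.847), and it was 1.77-fold lower at 10 days than at 3 days (-0.83, interval -1.22 to -0.43, adjusted p = 0.194 in limma). In the F test over the 3 groups its adjusted p was 0.0651.

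Single rats and settings moved Cxcl1 across the threshold. Within the 3-day group its signals spanned 0.84, and 1.26% of the tested genes spanned as much there. Without 3-day rat 3, the lowest of that group, the difference at 3 days was 0.93 with an adjusted p of 0.0172. Without 3-day rat 1, the highest, it was 0.51 with an adjusted p of 0.0824 in limma, and without sham rat 1 the adjusted p was 0.190. It was 0.0390 with array weights and 0.0490 with a filter at the 50th percentile. The difference kept its sign in all 9 fits without 1 array.

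Cxcl2, the neighbour of Cxcl1 that also acts through Cxcr2, had the same direction and a smaller difference. Its signal was 12.02, 12.18 and 12.26 in the sham rats, 12.54, 12.51 and 12.24 in the 3-day rats and 12.10, 12.11 and 12.25 in the 10-day rats. Of the 3-day rats, rats 1 and 2 lay above all other arrays, and rat 3 lay within the range of the others. Cxcl2 differed from sham by 0.28 ± 0.10 (SE) at 3 days (1.21-fold, interval 0.06 to 0.49, adjusted p = 0.190 in limma). At 10 days the difference from sham was -0.00 ± 0.10 (interval -0.22 to 0.22), and between the days it was -0.28 (adjusted p = 0.349 in limma). The highest values of any probeset on the arrays were 13.35 to 13.49. In both ligands 3-day rat 1 was highest and 3-day rat 3 lowest of that group.

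Neutrophil markers followed these values in part. The score of 9 tested neutrophil markers, the mean of their log2 signals after each gene's own mean was taken off, was -1.16, 0.14 and 0.23 in the sham rats, 0.58, 0.72 and -0.04 in the 3-day rats and 0.14, -0.01 and -0.59 in the 10-day rats. The score of 3-day rat 3 lay below those of sham rats 2 and 3, whereas its Cxcl1 lay above every sham rat, and at 10 days the score was lowest in rat 3, where Cxcl1 and Cxcl2 were highest. Their mean level ran from 7.33 to 8.73 in sham rats, from 8.46 to 9.22 at 3 days and from 7.90 to 8.64 at 10 days. At 3 days 8 of the 9 had a positive difference from sham, with a median of 0.84 (-0.01 over all tested genes). At an unadjusted p under 0.05 in limma there were 4 of 9 (15.5% of all tested genes). After adjustment 2 of the 9 rose, Fcnb and Csf3r, by 1.23 and 1.04, where 2.86% of all tested genes passed. Between the days 0 of 9 were positive, with a median of -0.66. When each array was left out in turn, Csf3r lost its call in 6 of 9 fits and Fcnb in 0 of 9. The score of markers of peritoneal macrophages, the macrophages of the abdominal cavity, was higher at 3 days as well. The score of 8 tested markers was -0.27, -0.18 and -0.17 in the sham rats, 0.33, 0.24 and 0.22 in the 3-day rats and -0.11, -0.09 and 0.03 in the 10-day rats, and Ltbp1 and Garnl3 were under the filter. Their mean level ran from 7.71 to 7.81, from 8.20 to 8.31 and from 7.87 to 8.01. All 3-day rats lay above the others, with the same order of rats as for Cxcl1 within the sham and within the 3-day group. The median difference of the 8 at 3 days was only 0.05, with 6 of 8 positive, so the higher score rested on few of them. Of these 8, 3 rose at 3 days, Prg4, F5 and Fn1 (1.71, 1.06 and 1.31), and all 3 kept the call in 9 of 9 fits without 1 array. Between the days F5 and Fn1 fell, by 0.77 and 0.78, calls lost in 5 and 7 of those fits. The score of the 11 macrophage markers was -0.19, -0.27 and -0.22 in the sham rats, -0.04, -0.00 and 0.53 in the 3-day rats and 0.03, 0.05 and 0.11 in the 10-day rats. All 3-day and 10-day rats lay above sham. At 3 days the median difference of these 11 was 0.49, with 9 of 11 positive. At an unadjusted p under 0.05 in limma there were 6 of 11 (15.5% of all tested genes), and 0 passed after adjustment. The parts of neutrophils, of peritoneal macrophages and of all macrophages in the Cxcl1 and Cxcl2 signals were not tested.

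**Figure D2:**
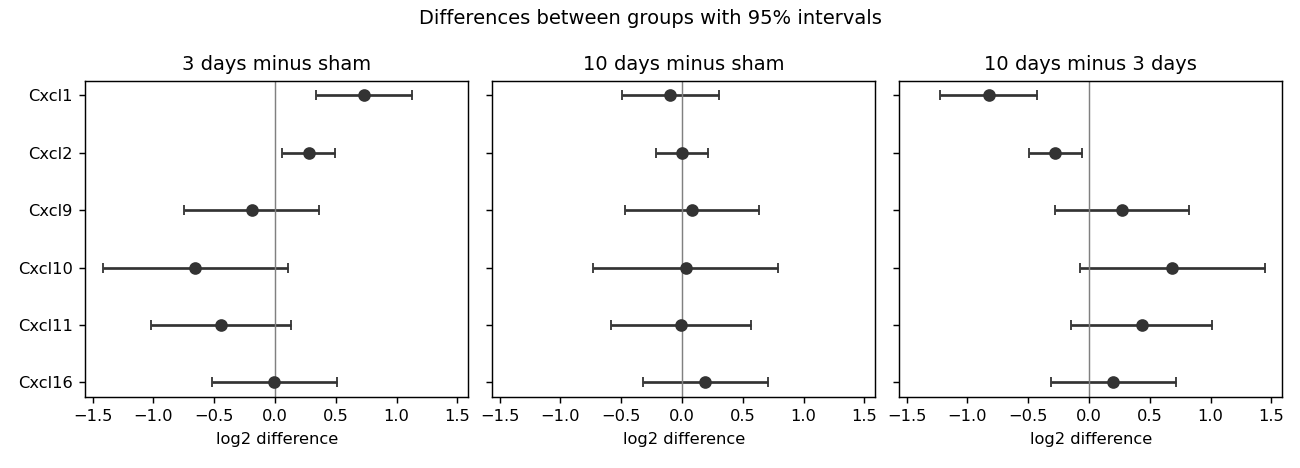
Log2 differences of the 6 tested ligands between groups (points) with 95% intervals (bars) from the fit to all 9 arrays. The intervals of Cxcl1 and Cxcl2 lie above 0 at 3 days and below 0 between the days, and those of the other 4 ligands cross 0 in each comparison.

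The ligands of Cxcr3 were lower on average at 3 days, but the size of the difference, and for Cxcl9 its sign, depended on single rats. Cxcl10 had signals of 8.65, 8.51 and 8.35 in the sham rats, 7.01, 8.50 and 8.04 in the 3-day rats and 9.03, 8.13 and 8.45 in the 10-day rats. The groups overlapped, since 3-day rat 2 was level with sham while rat 1 was 2.82-fold below the sham mean. Rats 1 and 3 both lay below every sham rat. Cxcl11 had signals of 5.91, 5.85 and 6.00 in the sham rats, 4.85, 6.07 and 5.51 in the 3-day rats and 6.24, 5.75 and 5.74 in the 10-day rats. Here 3-day rat 2 lay above all sham rats, and 3-day rats 1 and 3 lay below all of them. Rat 1 was 2.10-fold below the sham mean. Cxcl9 had signals of 5.35, 4.99 and 5.39 in the sham rats, 4.47, 5.47 and 5.21 in the 3-day rats and 5.36, 4.99 and 5.63 in the 10-day rats. It was lowest in the same rat, 1.71-fold below the sham mean, and within or above the sham range in the other 3-day rats.

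At 3 days Cxcl10 differed from sham by -0.66 ± 0.34 (SE), with a 95% interval of -1.42 to 0.11 and an adjusted p of 0.406 in limma. Cxcl11 differed by -0.44 ± 0.26 (interval -1.02 to 0.13, adjusted p = 0.469) and Cxcl9 by -0.19 ± 0.25 (interval -0.75 to 0.36, adjusted p = 0.788 in limma). These intervals do not show that the ligands stayed level, since that of Cxcl10 reaches beyond a halving. At 10 days the differences from sham were 0.03 for Cxcl10, -0.01 for Cxcl11 and 0.08 for Cxcl9, with adjusted p from 0.913 to 0.991 in limma, and the interval of Cxcl10 ran from -0.73 to 0.79. Between the days they were 0.69, 0.43 and 0.27, with adjusted p from 0.488 to 0.698. Without 3-day rat 1 the differences at 3 days were -0.24 for Cxcl10, -0.13 for Cxcl11 and 0.10 for Cxcl9, the last with the sign turned. Without 3-day rat 2 they were -0.98, -0.74 and -0.40. The differences of Cxcl10 and Cxcl11 at 3 days stayed negative in all 9 fits without 1 array, and neither passed in any of them.

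These 3 ligands had the same order of rats in the 3-day group, but not in the sham or 10-day group. At 3 days each of them was lowest in rat 1, intermediate in rat 3 and highest in rat 2. Their signals there spanned 1.49 for Cxcl10 (2.81-fold), 1.22 for Cxcl11 and 1.00 for Cxcl9, and spans that large were found in 0.143%, 0.335% and 0.685% of the tested genes. In the sham group they spanned 0.29, 0.15 and 0.40, which 21.4%, 56.1% and 9.78% of the genes reached, and in sham the rats had a different order for Cxcl10 than for Cxcl9 and Cxcl11. At 10 days Cxcl10 spanned 0.90, Cxcl9 0.64 and Cxcl11 0.50, with rat 1 highest for Cxcl10 and Cxcl11 and rat 3 highest for Cxcl9. Likeness was measured as the root-mean-square difference between the profiles over the 9 arrays, each centred on its mean. Among the 6 tested ligands the smallest values were those of Cxcl10 and Cxcl11 (0.20) and of Cxcl9 and Cxcl11 (0.24). Cxcl1 and Cxcl2 (0.28), Cxcl2 and Cxcl16 (0.30) and Cxcl9 and Cxcl10 (0.34) followed. The measure is also small between genes that vary little, so this order does not rank likeness. The value of Cxcl2 and Cxcl16 was near the median of Cxcl16 against all genes compared (0.31). That of Cxcl9 and Cxcl10 was near the median of Cxcl9 (0.34). The largest value was that of Cxcl1 and Cxcl10 (0.89), and in 3-day rat 1 Cxcl1 was at its highest and Cxcl10 at its lowest.

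Lymphocyte markers, whose cells respond to these 3 ligands, did not follow the same order of rats. The T cell score of 11 markers was 0.34, 0.09 and 0.27 in the sham rats, -0.14, -0.02 and 0.06 in the 3-day rats and -0.24, -0.09 and -0.27 in the 10-day rats. At 3 days the T cell score was lowest in rat 1, as the 3 ligands were, but highest in rat 3. The natural killer cell score of 10 markers was 0.18, 0.17 and -0.30 in the 3-day rats, so it was lowest in rat 3 and not in rat 1. The mean level of the T cell markers was 9.11 to 9.36 in sham rats, 8.88 to 9.09 at 3 days and 8.75 to 8.93 at 10 days. That of the natural killer cell markers was 9.81 to 9.94, 9.41 to 9.89 and 9.49 to 9.59. At 10 days 0 of the 11 T cell markers had a positive difference from sham, with a median of -0.46. At an unadjusted p under 0.05 in limma there were 10 of 11 (16.2% of all tested genes). After adjustment 2 of the 11 fell, Cd5 and Cd6 (-0.58 and -0.64), where 0.735% of all tested genes passed. Each call was lost in 7 of the 9 fits without 1 array. Of the 10 natural killer cell markers 1 was positive at 10 days, with a median of -0.42, and 6 had an unadjusted p under 0.05. The part of these cells in the ligand signals was not tested.

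Ifng, the interferon made mainly by these lymphocytes, had signals of 9.69, 9.30 and 9.36 in the sham rats and 9.16, 9.65 and 9.26 in the 3-day rats, and differed from sham by -0.09 (interval -0.41 to 0.24, adjusted p = 0.844 in limma). It was lowest of the 3-day rats in rat 1 and highest in rat 2, as Cxcl10 was. At 10 days the orders were opposite. Ifng was 9.28, 9.57 and 9.36 there, lowest in rat 1 and highest in rat 2, where Cxcl10 was highest and lowest. Irf1, a transcription factor induced by interferon gamma, measured 10.66, 11.48 and 11.29 in the 3-day rats and 11.30, 11.29 and 11.14 in sham, and differed by -0.10 (adjusted p = 0.854). Of 13 tested genes of the interferon gamma pathway none passed the limma test in any comparison. At 3 days 2 of 13 had an unadjusted p under 0.05 (15.5% of all tested genes), and their median difference was -0.09. In 3-day rats 1, 2 and 3 the list scored -0.18, 0.13 and -0.02, against 0.01 to 0.02 in sham.

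Of 15 tested genes of the type I interferon response 2 fell at 3 days, the nucleic acid sensors Ifih1 and Zbp1 (-0.51 and -0.51, adjusted p = 0.0490 and 0.0371 in limma). At an unadjusted p under 0.05 there were 9 of 15 (15.5% of all tested genes), and for 10 of 15 the groups did not overlap (18.8%). A negative difference was found in 14 of 15, with a median of -0.51, where the median over all tested genes was -0.01. The call of Ifih1 held in 1 and that of Zbp1 in 2 of the 9 fits without 1 array. The score of the list was -0.41, -0.14 and -0.15 in the 3-day rats and 0.26, 0.15 and 0.33 in sham, so that all 3-day rats lay below sham. Whether this differs from Cxcl10 and Cxcl11, whose groups overlapped, was not tested. Dendritic cell markers were lower beside it, with a score over 8 markers of 0.11 to 0.13 in sham and of -0.19, -0.17 and -0.07 in the 3-day rats and mean levels of 8.19 to 8.21 and 7.89 to 8.01. Of these 8, Flt3, Clec9a and Irf8 fell at 3 days (-1.12, -0.67 and -0.38), the call of Clec9a being lost in 2 of the 9 fits that left out an array. Irf8 is itself inducible by interferon gamma. The part of dendritic cells in these values was not tested.

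**Figure D3:**
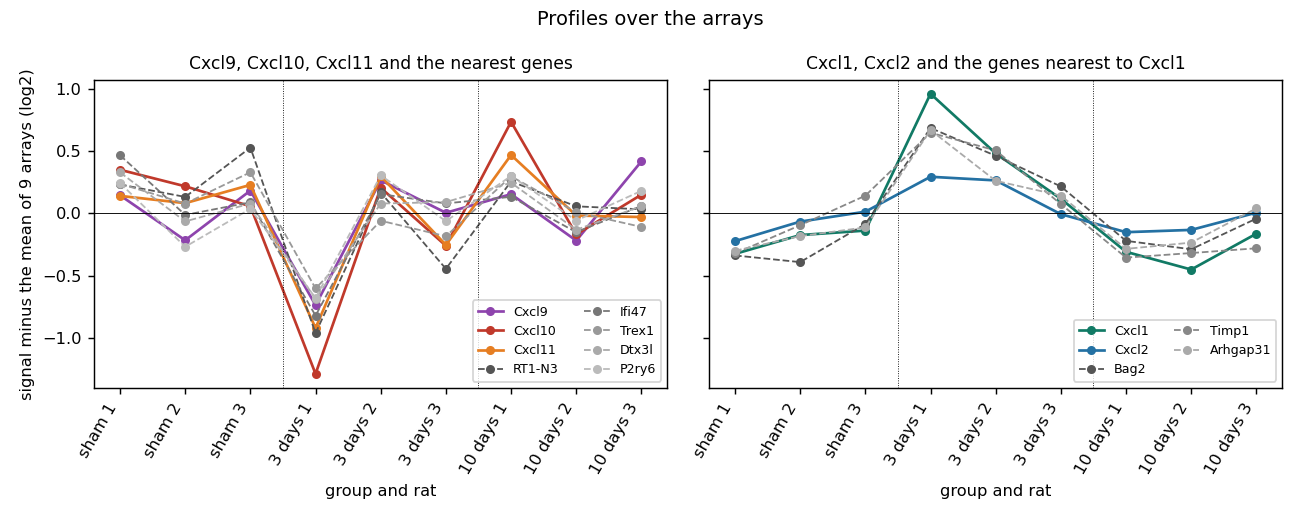
Signal minus the mean of the 9 arrays (log2) in each rat, for Cxcl9, Cxcl10 and Cxcl11 with 5 of the genes nearest to them (left) and for Cxcl1 and Cxcl2 with the 3 genes nearest to Cxcl1 (right). The left profiles share a low point in 3-day rat 1, and the right profiles are highest in that rat.

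The genes with profiles nearest to a ligand were sought among 13951 other tested genes with a name, for the 5 ligands whose SD over the 9 arrays was at least 0.3. For Cxcl10 these were Cxcl11 (0.20), the class I histocompatibility gene RT1-N3 (0.27) and Ifi47, an interferon-inducible GTPase (0.29), where the median over all genes compared was 0.54. For Cxcl11 they were RT1-N3 (0.15), the DNA exonuclease Trex1 (0.18) and the nucleotide receptor P2ry6 (0.19), and for Cxcl9 they were P2ry6 (0.13), Cntnap5a (0.16) and the ubiquitin ligase Dtx3l (0.17). In the 3-day rats Ifi47 measured 8.95, 9.92 and 9.85 and RT1-N3 measured 5.61, 6.74 and 6.13, lowest in rat 1 for both. None of these 6 genes beside Cxcl11 passed the limma test, with adjusted p at 3 days from 0.12 (Trex1) to 0.82 (P2ry6). Nearest to Cxcl1 were the co-chaperone Bag2 (0.14), the metalloproteinase inhibitor Timp1 (0.16) and the GTPase-activating protein Arhgap31 (0.16), against a median of 0.44. Bag2 rose by 0.73 at 3 days (adjusted p = 0.0182 in limma), a call lost in 3 of the 9 fits that left out an array, while Timp1 (0.50) and Arhgap31 (0.56) had adjusted p of 0.13 and 0.07. These likenesses describe 9 arrays and come with no test.

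Cxcl16 had no clear difference between groups. Its signal was 9.64, 10.34 and 10.52 in the sham rats, 10.24, 10.14 and 10.09 in the 3-day rats and 10.34, 9.99 and 10.74 in the 10-day rats. The 3-day rats lay close together, within 0.15, and inside the range of the sham rats, which spanned 0.88, since sham rat 1 lay lowest of all 9. The difference from sham was -0.01 ± 0.23 (SE) at 3 days (interval -0.52 to 0.51, adjusted p = 0.996 in limma) and 0.19 at 10 days (interval -0.32 to 0.71, adjusted p = 0.736 in limma). Without sham rat 1 these were -0.27 and -0.07. Sham rat 1 was also the array with the lowest neutrophil score. The genes nearest to Cxcl16 were Or52l1, Fam111a and Slc10a5 (0.15 to 0.17, median over all genes 0.31).

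Cxcl12 and Cxcl13 were left out of the test by the filter on dim genes. With no filter neither passed in any comparison in limma, with adjusted p at 3 days of 0.996 for Cxcl12 and 0.664 for Cxcl13. Cxcl12 ranged from 3.87 to 4.30 over the 9 arrays, and 5 of the 9 arrays held the same value to all decimals, which leaves its differences of -0.00 at 3 days and 0.03 at 10 days without a usable spread. Cxcl13 ranged from 2.81 to 3.12, with differences of -0.11 at 3 days and -0.04 at 10 days, and the groups overlapped. Of the 11 stellate and stromal cell markers found on the array, from the cells known to make Cxcl12, 3 were also under the filter (Dcn, Lum and Lrat). The 8 tested had a mean level of 5.10 to 5.22. Of those 8, Ecm1 rose at 3 days (0.60), a call lost in 7 of the 9 fits without 1 array. A dim signal does not show that a ligand is not expressed.

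Other CXC ligands on the array did not pass the test. Of 7 listed, Cxcl5 was not matched under that symbol, and Cxcl3, Cxcl6 and Cxcl14 were under the filter. Cxcl3, a neutrophil attractant close to Cxcl1 and Cxcl2, was 3.43 ± 0.10 (SD, n = 3) in sham, 3.63 ± 0.11 at 3 days and 3.51 at 10 days. Its 3-day rats lay above the others, and it was left out of the test. The platelet chemokine Pf4 was 8.87, 7.37 and 8.95 in the 3-day rats and 7.13 to 7.54 in sham, a difference of 1.00 ± 0.38 (SE) (adjusted p = 0.228 in limma), and between the days it differed by -1.38 (adjusted p = 0.261). Ppbp, the other platelet chemokine, differed from sham by -0.09 at 3 days and -0.36 at 10 days (adjusted p = 0.857 and 0.323 in limma). The score of 5 platelet markers, which include both, was 0.59, -0.20 and 0.71 in the 3-day rats, with the same low rat 2 as Pf4. None of the 3 tested ligands of this list passed in any comparison, with 1 at an unadjusted p under 0.05 at 3 days, 0 at 10 days and 1 between the days.

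Receptors of the ligands did not pass the test either. None of the 6 tested receptors passed in limma, with 2 of 6 at an unadjusted p under 0.05 at 3 days, 1 at 10 days and 0 between the days. Of all tested genes 15.5%, 16.2% and 11.3% were. Cxcr1 was under the filter, and Ackr1 was not matched. Cxcr2, the receptor of Cxcl1 and Cxcl2 on neutrophils, was 7.21, 8.65 and 8.65 in the sham rats and 8.76, 9.56 and 8.69 in the 3-day rats. All 3-day rats lay above sham, and sham rat 1 lay far below the other sham rats. The difference was 0.84 ± 0.39 (SE) (interval -0.04 to 1.71, adjusted p = 0.349 in limma) and 0.36 without sham rat 1, and it passed in 0 of the 9 fits that left out an array. Cxcr2 is itself one of the neutrophil markers scored above.

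Cxcr3, which binds Cxcl9, Cxcl10 and Cxcl11, was 7.87, 8.04 and 8.03 in the sham rats and 7.68, 7.85 and 7.80 in the 3-day rats, and differed by -0.20 at 3 days and -0.27 at 10 days (adjusted p = 0.516 and 0.346 in limma). Cxcr6, the receptor of Cxcl16, differed by -0.40 at 3 days (interval -0.76 to -0.04, adjusted p = 0.257 in limma) and by -0.19 at 10 days. Cxcr5, which binds Cxcl13 on B cells, was 7.88, 7.67 and 7.88 in the sham rats, 8.74, 7.71 and 8.91 at 3 days and 8.36, 8.35 and 8.79 at 10 days. All 10-day rats lay above sham, with a difference of 0.69 ± 0.27 (SE) (adjusted p = 0.246 in limma), and at 3 days it was 0.64 (adjusted p = 0.288). B cell markers moved the same way, with scores of -0.34 to -0.32 in sham, 0.10, -0.07 and 0.40 in the 3-day rats and 0.14, 0.09 and 0.35 in the 10-day rats. Of 8 tested B cell markers, 2 rose at 3 days (Vpreb3 and Cr2, by 0.83 and 0.75), calls lost in 5 and 3 of the 9 fits without 1 array, and their part in the Cxcr5 signal was not tested. Cxcr4 (0.00) and Ackr3 (0.08), the receptors of Cxcl12, had small differences at 3 days, with intervals of -0.22 to 0.22 and -0.12 to 0.28.

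**Figure D4:**
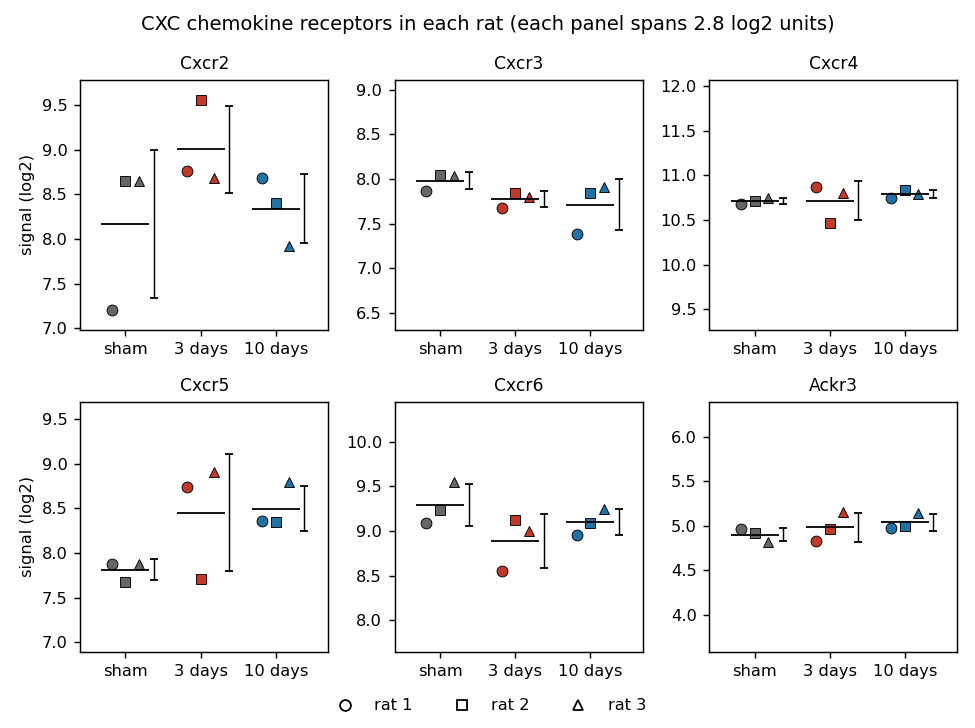
Signal (log2) of the 6 tested receptors in the 9 rats, drawn as for the ligands; every panel spans the same height. Sham rat 1 lies lowest for Cxcr2, and 3-day rat 2 lies apart from the other 3-day rats for Cxcr5.

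Among 9 tested genes that cleave, bind or present chemokines, Sdc1 rose at 3 days. It encodes syndecan-1, a cell surface proteoglycan whose heparan sulfate binds chemokines, and was 7.76, 8.16 and 8.27 in the sham rats and 8.92, 8.76 and 8.86 in the 3-day rats. The difference was 0.78 (interval 0.52 to 1.05, adjusted p = 0.0103 in limma), and the call held in each of the 9 fits without 1 array. None of the 9 passed at 10 days or between the days. At an unadjusted p under 0.05 in limma there were 5 of 9 at 3 days, 4 at 10 days and 1 between the days. Of all tested genes 15.5%, 16.2% and 11.3% were. Adam17, a sheddase that can release Cxcl16, differed by 0.37 at 3 days (adjusted p = 0.192 in limma), and Adam10 was not matched. Dpp4, a peptidase that trims Cxcl10 and Cxcl12 at the N-terminus, differed by -0.29 at 3 days and -0.44 at 10 days (adjusted p = 0.497 and 0.259).

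Of 15 tested genes of the NF-kB pathway, which drives Cxcl1 and Cxcl2, 1 rose in the 3-day comparison: Cd14, which hands endotoxin to the receptor Tlr4 (0.92, adjusted p = 0.0205 in limma), a call lost in 4 of the 9 fits without 1 array. The median difference of the list was 0.15, where that over all tested genes was -0.01, and 10 of 15 were positive. None passed at 10 days or between the days. At an unadjusted p under 0.05 in limma there were 5 of 15 at 3 days, 4 at 10 days and 5 between the days. Of all tested genes 15.5%, 16.2% and 11.3% were. The 5 at 3 days went both ways. Cd14, Il1a (0.40) and Il1b were higher than in sham, and Myd88 (-0.23) and Relb (-0.21) were lower, with no overlap with sham. Il1b (0.36) and Tnf (0.34), cytokines that induce Cxcl1, had adjusted p of 0.175 and 0.381 at 3 days, and Nfkbia, the inhibitor of NF-kB, differed by 0.04 (adjusted p = 0.870). Il1b was 12.51, 12.57 and 12.18 in the 3-day rats against 11.93, 12.01 and 12.27 in sham, with rat 3 lowest of its group as for Cxcl1 and Cxcl2. Of 8 tested genes of lymphotoxin signalling and B cell attraction, which induce Cxcl13 in lymphoid tissue, none passed in any comparison in limma, with 0, 1 and 0 at an unadjusted p under 0.05 at 3 days, at 10 days and between the days. Ltb differed by -0.25 and its receptor Ltbr by 0.23 at 3 days (adjusted p = 0.399 and 0.325).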

How the data were processed

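RNA of hepatic macrophages of 9 rats, each on its own array per the labels, was hybridised to 1-colour Affymetrix arrays. The authors deposited log2 signals. The submitters' processing notes name RMA and Transcriptome Analysis Console, without versions. No further normalization was applied. The number of arrays limits the precision. Gene symbols came from the platform annotation, where 18511 of 36685 carried 1 symbol, 575 several and 17599 none. The probeset of highest mean stood for a gene. One linear model over all 9 arrays was fitted in limma 3.58.1 under R 4.3.3 (6 residual and 3.59 prior degrees of freedom), and its 2-sided moderated test was adjusted over 14014 genes. Intervals are moderated 95% intervals. The procedure was tested on simulated data.

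The 8 ligands and the gene lists were chosen with earlier results of these data known, and the motifs with the promoters in view. The text names all ligands, genes of the pathway lists that passed a test, fixed receptors and pathway genes, and the 3 genes nearest to each ligand that varied. The alternatives were other filters, summaries, normalizations, moderation, weights, a replicate block, fits of 2 groups, a threshold of 0.1 and leaving out each array.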

Additional observations from a re-analysis of the deposited data

How the results depend on the processing

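The ligand count of 0 at 3 days became 1, Cxcl1, with a filter at the 50th percentile, with array weights and with a threshold of 0.1. In the F test it became 1, again Cxcl1, with array weights and with a threshold of 0.1. In fits without 1 array both counts ran from 0 to 1, with 1 in the fit without 3-day rat 3. At 10 days and between the days the count was 0 in every alternative run with limma, with 0 and with 1 to 3 ligands at an unadjusted p under 0.05. No paired samples were evident: deviations from the group means of arrays with the same number correlated by -0.060 to 0.0069, and of other arrays by -0.050 to 0.074. With the replicate block no ligand passed, and the adjusted p of Cxcl1 at 3 days was 0.112.

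The count of all genes at 3 days, 401, was 107 with all probesets, 264 with the replicate block, 134 with 2 groups in the fit, 709 with a threshold of 0.1 and 190 to 327 without 1 array (256, 190 and 240 without sham rats 1, 2 and 3, and 194 without 3-day rat 2). At 10 days it was 103, and 0 with no filter, with all probesets and with the replicate block (2163 to 4285 at an unadjusted p under 0.05 in limma). It was 173 with the filter at the 50th percentile and with trend and robust moderation, 170 with quantile normalization, 197 with array weights, 61 with 2 groups, 444 with a threshold of 0.1 and 0 to 140 without 1 array, with 0 without sham rat 2, sham rat 3 or 10-day rat 3 (1918, 1805 and 1897 unadjusted), 1, 2, 11 and 45 without 10-day rat 1, 10-day rat 2, sham rat 1 and 3-day rat 2. Between the days it was 10, and 0 with all probesets and the replicate block (3674 and 1511 unadjusted), 3 with 2 groups and 0 to 18 without 1 array, with 0 without sham rat 2, 3-day rat 1 or 10-day rat 3 (1427, 1333 and 1238 unadjusted), 1, 4 and 5 without 10-day rat 1, sham rat 3 and 10-day rat 2, and 18 without 3-day rat 2.

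The signs of small differences turned. At 10 days Cxcl2 was 0.047 with quantile normalization and Cxcl11 0.0059 with array weights. Without 1 array the differences at 10 days ran from -0.066 to 0.052 for Cxcl2, -0.070 to 0.25 for Cxcl9, -0.22 to 0.23 for Cxcl10, -0.17 to 0.075 for Cxcl11 and -0.069 to 0.38 for Cxcl16. At 3 days they ran from -0.40 to 0.098 for Cxcl9 and -0.27 to 0.17 for Cxcl16, and between the days from -0.017 to 0.48 for Cxcl9. The causes were not tested. With 3 rats a group, Cxcl10 at 3 days had an interval from -1.42 to 0.11. A fall beyond a halving, a smaller fall, no change and a slight rise therefore cannot be told apart.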
